A study of Oryza sativa with 8 samples.

Results

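The ASR (ABA, stress and ripening) family of rice was followed in roots of 2 indica lines at 28 °C and 10 °C. Its 6 members were taken by locus ID: LOC_Os02g33820 (listed as ASR1), LOC_Os01g72910, LOC_Os01g72900, LOC_Os04g34600, LOC_Os11g06720 (listed as ASR5) and LOC_Os01g73250. All 6 were among the 42189 gene IDs of each deposited table. The family was chosen by the deposited log2 changes in the cold, in which LOC_Os01g72900 had one of the largest rises, so the cold responses below are a description and carry no test. Where a cold response is said to pass or not, this only places it against a threshold and is not used as a test. Family membership rests on general knowledge of rice, as the reference table held 0 of the 42189 IDs.

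ASR proteins are small, hydrophilic plant proteins that are often grouped with the late embryogenesis abundant (LEA) proteins. They are induced by abscisic acid (ABA), the hormone of drying and cold tissue, and by water loss, and in some fruits by ripening. They are largely unfolded in solution, protect other proteins from aggregation, and in the nucleus can bind DNA. In rice roots the ASR5 protein is known to bind the promoter of an aluminium tolerance gene, STAR1.

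Both lines are indica and carry IRGA names that share a stem; the name of the cold-tolerant line ends in A and that of the cold-sensitive line in D-1-CA-1. Plants at the stage of 3 leaves, about 30 days old, were kept at 28 °C or moved to 10 °C, giving 4 groups of 2 libraries with 4 plants pooled in each. All groups grew in nutrient solution, and the labels name no other agent or allele for any group. The labels give 24 h of treatment in one place and up to 10 days in another, so the length of the cold stands unsettled. Nothing beyond the word "biological" says how replicates were separated, so their spread may be partly technical.

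The values are the authors' deposited tables of group comparisons, from 1 fit of all 8 libraries. Normalised counts (reads divided by a library's size factor) summed to 19350909 per library on average, and size factors ran from 1.10 to 1.25 at 28 °C and from 0.679 to 0.991 at 10 °C. For 5 of the 6 members the whole reads of each library could be solved from the deposited mean, log2 changes and standard errors. Libraries are named here by depth, as the deeper or the shallower of a group, because the solution carries no replicate number. LOC_Os11g06720 had too many reads for the search to be completed, and its group levels are given with a standard error (SE). The 2 libraries of a group lay further apart in the cold: over 1503 background loci the median fold between them was 1.43 in sensitive and 1.35 in tolerant roots at 10 °C, against 1.13 and 1.20 at 28 °C. All 4 root markers were detected in all 4 groups, at 1116 normalised counts or more, and in the cold 1 rose and 3 fell in tolerant and 1 rose and 2 fell in sensitive roots, where 40.0% and 44.5% of all genes tested passed in either direction. Photosynthesis loci of shoots summed to 4767 normalised counts in sensitive roots at both temperatures, and to 4709 at 28 °C and 1788 at 10 °C in tolerant roots; of these 6 loci 2 were lower in tolerant roots at 10 °C and 1 had a lower cold response there (adjusted p below 0.05, DESeq2 tables), LOC_Os01g41710 with log2 differences of −2.12 ± 0.46 (SE) and −2.75 ± 0.64 (SE). These are the comparisons in which LOC_Os01g73250 was called below, and the part of such loci in the results was not tested. The equal sums in sensitive roots held opposite cold changes, with 1 of the 6 loci higher and 1 lower. These were LOC_Os09g17740 at 1.28 ± 0.42 (SE) and LOC_Os12g19381 at −2.05 ± 0.43 (SE). For the 4 solved loci the log2 ratio of the shallower to the deeper sensitive library at 28 °C ran from −1.61 to −1.09. In such bulk roots, fewer cells of a type and less RNA per cell cannot be told apart.

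The family split in the cold. In both lines the neighbours LOC_Os01g72900 and LOC_Os01g72910 went from at most 8 reads to at least 228 in every library, and LOC_Os04g34600 rose modestly. LOC_Os11g06720, the member with most reads, and LOC_Os01g73250 fell in both lines, and LOC_Os02g33820 fell in tolerant roots. Of the 6 members, 6 passed an adjusted p of 0.05 in tolerant roots by the authors' deposited table, 3 higher and 3 lower, where 40.0% of all genes tested passed (20.3% higher and 19.7% lower). In sensitive roots 5 of 6 passed, 3 higher and 2 lower, where 44.5% of all genes passed (22.8% higher and 21.8% lower). Nothing is read from these counts, because the cold response was used to choose the family. The median log2 change over the 6 members was −0.09 in tolerant and 0.46 in sensitive roots, beside −0.08 and −0.03 over all genes tested.

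**Figure D1:**
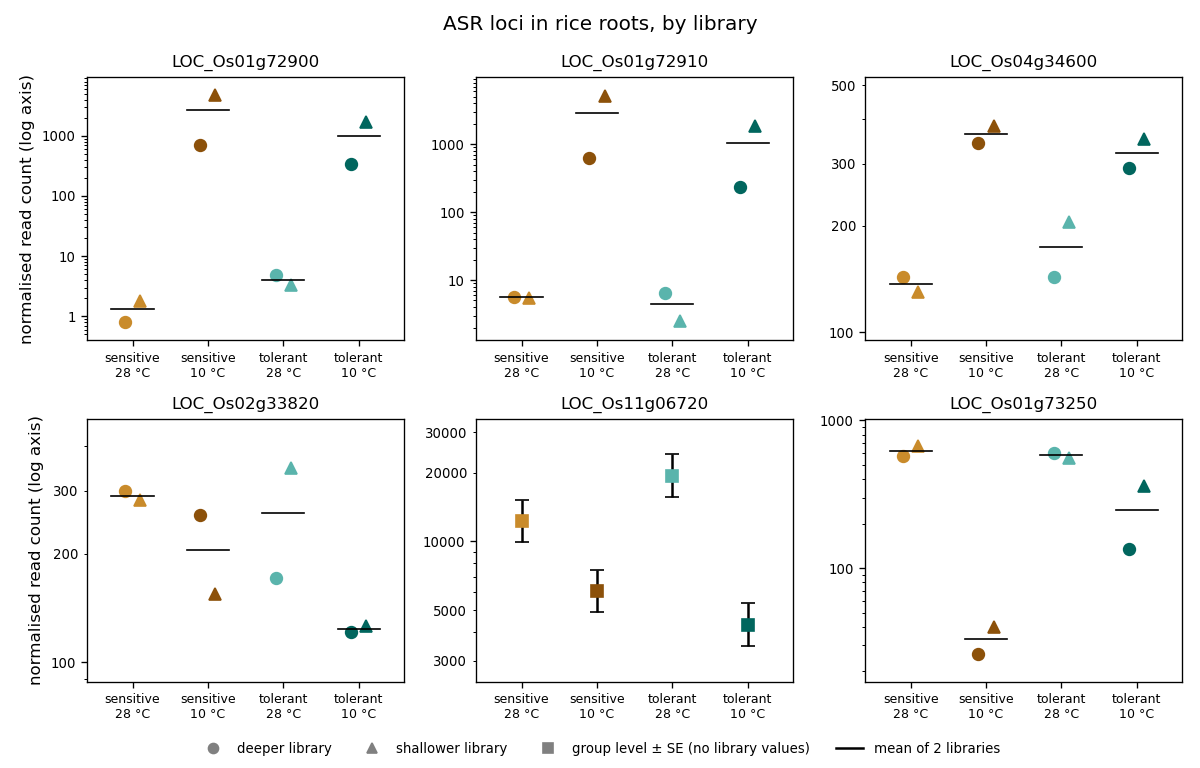
Normalised read count (log axis, scaled per panel) of each ASR locus in the 4 groups; circles and triangles are the deeper and shallower library of a group, and lines are means of 2 libraries. For LOC_Os11g06720 squares are group levels with their SE. LOC_Os01g72900 and LOC_Os01g72910 lie under 10 at 28 °C and above 200 in each library at 10 °C, and LOC_Os01g73250 is lowest in both sensitive libraries at 10 °C.

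LOC_Os01g72900 and LOC_Os01g72910 lie next to each other on chromosome 1, with 0 loci of the tables between them. In sensitive roots LOC_Os01g72900 had 1 and 2 reads in the deeper and the shallower library at 28 °C, and 681 and 3222 reads at 10 °C. In tolerant roots it had 6 and 4 reads at 28 °C, and 337 and 1366 at 10 °C. The cold and warm libraries did not overlap in either line.

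As normalised counts, the warm sensitive libraries held 0.806 and 1.82 of LOC_Os01g72900 and the cold ones 710.2 and 4745. The ratio of the cold mean to the 3 warm reads was 2125, with a 95% counting interval (exact Poisson) of 727 to 10304 that leaves out the spread between replicates. Its deposited log2 change of 11.04 ± 1.47 (SE, n = 2 against 2) was the second highest of 26199 genes tested in sensitive roots. In tolerant roots it stood at 4.79 and 3.32 and then at 340.2 and 1670 normalised counts, a deposited log2 change of 7.95 ± 1.29 (SE), which ranked 43 of 26199. The 2 cold libraries of a group were 6.68-fold apart in sensitive and 4.90-fold apart in tolerant roots, so the size of these changes is loosely fixed.

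LOC_Os01g72910 had 7 and 6 reads in sensitive roots at 28 °C, and 600 and 3462 reads at 10 °C. In tolerant roots it had 8 and 3 reads at 28 °C, and 228 and 1502 at 10 °C. Here too cold and warm libraries did not overlap, and in both lines the shallower cold library was the higher one. The deposited log2 changes were 9.01 ± 1.40 (SE) in sensitive and 7.86 ± 1.41 (SE) in tolerant roots, ranking 49 and 48 of 26199. Its cold libraries were 8.14-fold apart in sensitive and 7.96-fold apart in tolerant roots, further than 97.9% and 98.5% of the 1503 background loci. The sources used here do not say how reads matching both adjacent copies were counted, so the split between them is uncertain.

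The closest loci on either side of the pair with a mean above 20 normalised counts, LOC_Os01g72890 and LOC_Os01g72940, had deposited log2 changes of 0.15 and −0.23 in sensitive and 0.03 and −0.13 in tolerant roots. Further off, 5 loci before LOC_Os01g72900, LOC_Os01g72850 rose by 6.04 in sensitive and 3.91 in tolerant roots on the log2 scale. Over the 50 loci within 5 places of a member, 40 were tested in the cold tables; 16 of them passed in tolerant roots, 8 higher and 8 lower (40.0%), and 14 in sensitive roots, 5 higher and 9 lower (35.0%), beside 40.0% and 44.5% of all genes tested.

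LOC_Os04g34600 was higher in the cold in every library of both lines. The warm sensitive libraries held 144 and 130.3 normalised counts and the cold ones 343 and 384. In tolerant roots it went from 143 and 206 to 292 and 353. The deposited log2 changes were 1.41 ± 0.31 (SE) and 0.89 ± 0.30 (SE). The tolerant change did not pass when changes were centred on the median of well-covered genes (0.69), or without the shallower cold (0.74) or the deeper warm library (0.65). Unlike the tandem pair, its libraries within a group lay at most 1.44-fold apart.

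**Figure D2:**
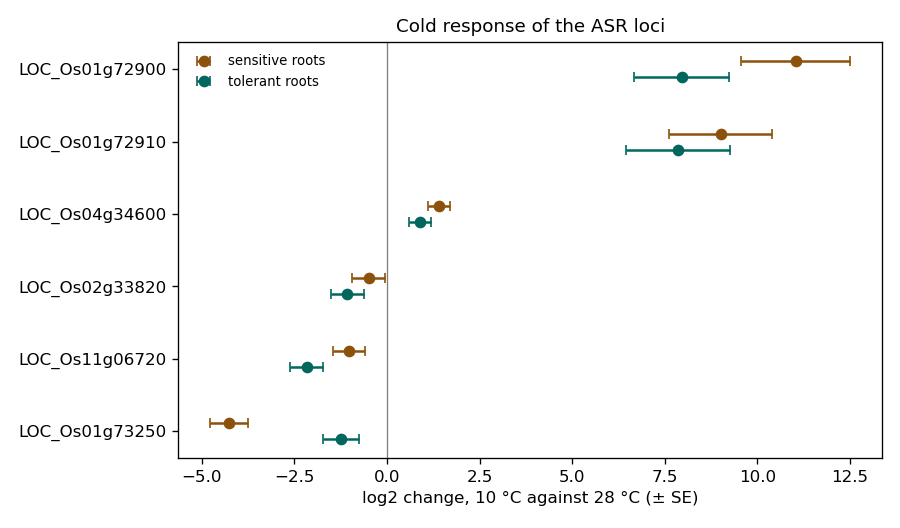
Deposited log2 change from 28 °C to 10 °C with its SE (x axis) for the 6 ASR loci in sensitive and tolerant roots. LOC_Os01g72900 and LOC_Os01g72910 lie at 7.86 or above in both lines, whereas LOC_Os01g73250 lies at −4.26 in sensitive and −1.24 in tolerant roots.

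LOC_Os11g06720, listed as ASR5, fell in both lines. Its group level was 12283 normalised counts (9901 to 15237, plus and minus 1 SE) in sensitive and 19383 (15625 to 24045) in tolerant roots at 28 °C. At 10 °C it was 6056 (4881 to 7514) and 4316 (3479 to 5356). The deposited log2 changes were −1.02 ± 0.44 (SE) in sensitive and −2.17 ± 0.44 (SE) in tolerant roots. The sensitive change lay close to the threshold, with an adjusted p of 0.0465 (Wald test of the deposited DESeq2 table). It did not pass at an adjusted p below 0.01, or with genes of low mean kept in the adjustment. No fit without a library could be made for this member. From high to low the groups thus ran tolerant 28 °C, sensitive 28 °C, sensitive 10 °C and tolerant 10 °C, and the lines did not differ past the threshold at either temperature.

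LOC_Os02g33820, listed as ASR1, was lower in the cold without overlap in either line, by a margin that was small in sensitive roots. The warm sensitive libraries held 298 and 283 normalised counts and the cold ones 257 and 155, a deposited log2 change of −0.49 ± 0.44 (SE). In tolerant roots it went from 172 and 347 to 121 and 126, a change of −1.07 ± 0.44 (SE). The warm tolerant libraries were 2.02-fold apart, further than 94.0% of background loci in that group. The tolerant change passed in 1 of 4 fits that left out a library with the dispersion held, and ranged from −1.49 to −0.47; the lowest in size left out the shallower warm library.

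Because the abundant member fell while the tandem pair rose, the make-up of the family's reads shifted. LOC_Os11g06720 held 92.1% of the reads of all members in sensitive and 94.99% in tolerant roots at 28 °C, and 49.4% and 61.3% at 10 °C. The tandem pair went from 0.0514% to 45.6% in sensitive and from 0.0417% to 28.9% in tolerant roots. These are shares of reads, not corrected for length. The cold shares lean on the shallower library: with the pair at its level in the deeper library alone and the other members at their group level, they were 16.7% in sensitive and 10.2% in tolerant roots, and with the shallower alone 59.6% and 41.2%. The summed level of the family was 13340.5 and 12248 normalised counts at 28 °C and 10 °C in sensitive roots, and 20406 and 7046 in tolerant roots. With the pair at its deeper-library level the cold sums were 7995 and 5579, so how far the sum moved in sensitive roots depends on 1 library.

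LOC_Os01g73250 was the member at which the lines parted in the cold. It also lies on chromosome 1, with 32 loci between it and LOC_Os01g72900. At 28 °C it stood at 576 and 671 normalised counts in sensitive and at 603 and 558 in tolerant roots. At 10 °C the sensitive libraries held 26.1 and 39.8, from 25 and 27 reads, and the tolerant ones 134 and 359, from 133 and 294 reads. Both cold tolerant libraries lay above both cold sensitive ones, and the warm groups overlapped. The deposited log2 changes in the cold were −4.26 ± 0.51 (SE) in sensitive and −1.24 ± 0.47 (SE) in tolerant roots. The tolerant change was −0.69 without the deeper and −2.11 without the shallower cold library, and passed in 1 of 4 fits that left out a library.

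At 10 °C LOC_Os01g73250 was 7.56-fold higher in tolerant roots, a log2 difference of 2.92 ± 0.51 (SE; adjusted p = 3.11e-06, Wald test of the authors' deposited DESeq2 table). It was the only 1 of the 6 members called, where 2.90% of all genes tested were called (1.31% higher and 1.60% lower in tolerant roots), and ranked 95 by p among 23446 genes. Leaving out each library in turn, with the dispersion held, kept the call, with log2 differences of 2.04 to 3.46 and adjusted p-values of 3.64e-06 to 0.0366.

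The difference between the cold responses of LOC_Os01g73250 was itself tested. It was 3.02 ± 0.70 (SE) on the log2 scale, the fall being smaller in tolerant roots (adjusted p = 0.00810, Wald test derived from the deposited DESeq2 tables and adjusted over 26199 genes), where 0.622% of genes passed (0.214% higher and 0.408% lower). It shares the cold libraries with the comparison at 10 °C. The call ended without the shallower tolerant library at 10 °C, with a difference of 2.14 (adjusted p = 0.259), and without the deeper sensitive library at 10 °C, with 2.73 (adjusted p = 0.0755). It held in the other 6 of 8 such fits, and the difference was positive in 8 of 8. The locus just before LOC_Os01g73250 in the tables, LOC_Os01g73240, fell in both lines. Its log2 change was −7.02 in the tolerant and −4.74 in the sensitive line. Its log2 difference of −2.01 between the lines at 10 °C did not pass (adjusted p = 0.382, Wald test of the deposited DESeq2 table).

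**Figure D3:**
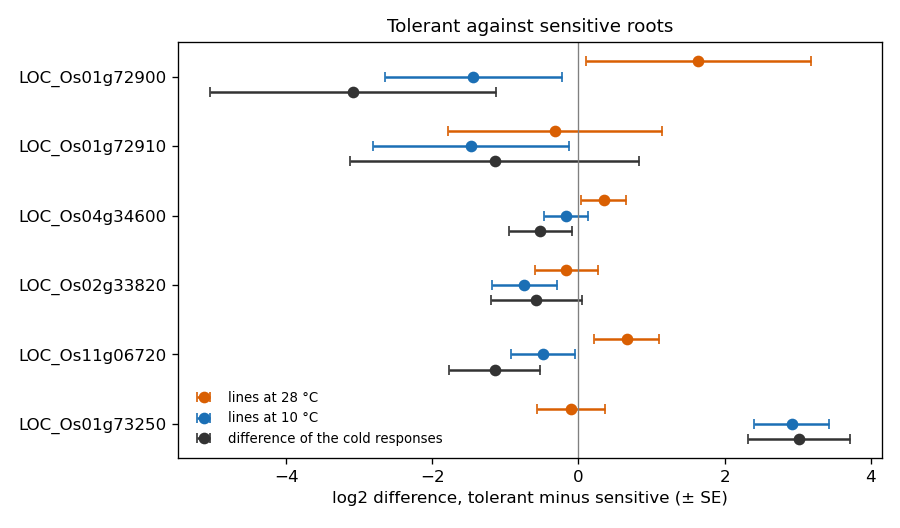
Log2 difference between tolerant and sensitive roots with its SE (x axis) for the 6 ASR loci at 28 °C, at 10 °C, and for the difference of the cold responses. LOC_Os01g73250 lies at −0.10 at 28 °C and at 2.92 at 10 °C; the other 5 loci lie between −1.47 and −0.17 at 10 °C.

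At 28 °C no difference between the lines passed. Of the 6 members 0 were called in the authors' deposited DESeq2 table and 0 had an unadjusted p below 0.05, where 0.765% of all genes tested were called (0.392% higher and 0.374% lower in tolerant roots). LOC_Os11g06720 had the lowest unadjusted p, 0.134 (Wald test of the deposited DESeq2 table), with a log2 difference of 0.66 (95% interval −0.20 to 1.52). For LOC_Os02g33820 the interval was −1.01 to 0.68, for LOC_Os04g34600 −0.26 to 0.95 and for LOC_Os01g73250 −1.02 to 0.82. For the tandem pair the intervals were wide, −1.37 to 4.65 for LOC_Os01g72900 and −3.19 to 2.54 for LOC_Os01g72910. The pair had 3 to 13 reads per group at 28 °C. Its intervals also carry a dispersion that is shared with the cold groups. That dispersion was 0.702 for LOC_Os01g72900 and 0.859 for LOC_Os01g72910, beside 0.0401 to 0.105 for the other members.

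At 10 °C the other 5 members all had the lower level in tolerant roots, and none of these differences passed. The log2 differences were −1.47 ± 1.34 (SE) for LOC_Os01g72910, −0.74 ± 0.44 for LOC_Os02g33820, −0.49 ± 0.44 for LOC_Os11g06720 and −0.17 ± 0.30 for LOC_Os04g34600, with adjusted p-values of 0.505 to 0.886 in the deposited DESeq2 table. LOC_Os01g72900, whose cold level chose the family, had −1.44 ± 1.21 (SE), given as a description. In the tandem pair the lines overlapped, the higher tolerant library lying above the lower sensitive one, and the difference turned positive without the shallower sensitive library, at 0.50 for LOC_Os01g72900 and 0.72 for LOC_Os01g72910. The differences in cold response of LOC_Os01g72910, LOC_Os02g33820, LOC_Os04g34600 and LOC_Os11g06720 ran from −1.15 to −0.52 on the log2 scale, with adjusted p-values of 0.673 to 0.983 in the derived Wald test over all genes of the DESeq2 tables.

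The cold libraries of both lines were ordered alike. The shallower library was the higher one for 5 of 5 solved members in tolerant and for 4 of 5 in sensitive roots at 10 °C, the exception being LOC_Os02g33820. Among the dehydrin and LEA loci solved, which encode proteins of drying tissue, it was the higher one for 4 of 4 in tolerant and 3 of 4 in sensitive roots. Among all 1503 background loci the same library was higher in both lines for 70.5%, and for 139 of 155 loci (89.7%) that lay over 2-fold apart in both. The sources used here do not say whether these libraries share a replicate number or a harvest, and their part in the size of the changes was not tested. Without the shallower cold library, LOC_Os01g72900 had a log2 change of 9.09 in sensitive and 6.39 in tolerant roots, and LOC_Os01g72910 of 6.81 and 5.69.

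**Figure D4:**
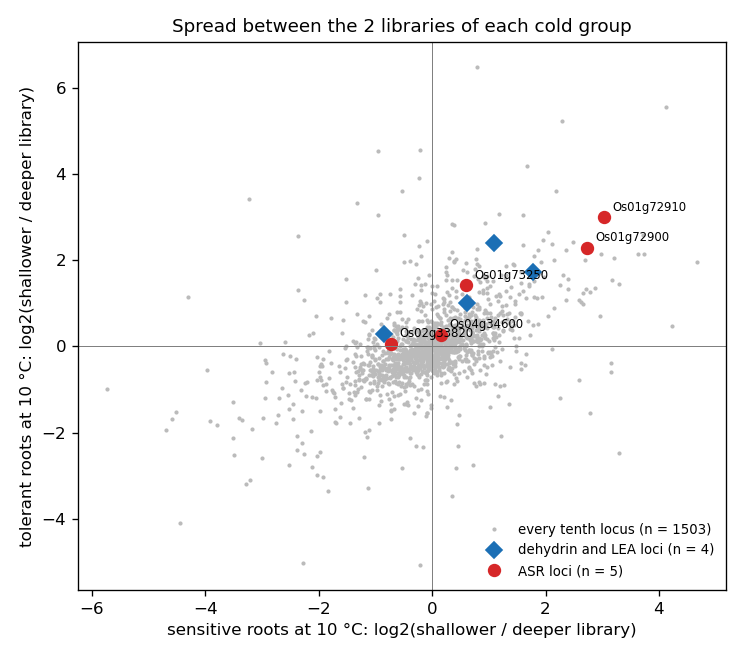
Log2 ratio of the shallower to the deeper library at 10 °C in sensitive (x axis) and tolerant roots (y axis), after adding 0.5 to each normalised count. Red points are 5 ASR loci, blue points 4 dehydrin and LEA loci and grey points 1503 background loci; LOC_Os01g72910 lies at 3.03 and 2.99 and LOC_Os01g72900 at 2.74 and 2.29.

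Among related genes, all 8 dehydrin and LEA loci rose in both lines in the authors' deposited tables, by 3.13 to 9.63 on the log2 scale in tolerant and 3.70 to 9.92 in sensitive roots. At 28 °C 1 of them in sensitive and 2 in tolerant roots lay at about 0 reads, so their fitted changes rest on the handling of such reads. Of all genes tested 20.3% rose and 19.7% fell in tolerant roots, and 22.8% rose and 21.8% fell in sensitive roots. Of 7 loci of ABA synthesis and breakdown, 4 rose and 0 fell in tolerant roots, and 6 rose and 1 fell in sensitive roots. The highest of these was LOC_Os12g42280, at 5.60 ± 0.80 (SE) in tolerant and 6.39 ± 0.80 (SE) in sensitive roots. Of 9 aluminium tolerance loci 8 were tested; 0 rose and 4 fell in tolerant roots, and 1 rose and 3 fell in sensitive roots, a count of 4 of 8 in each line beside the 40.0% and 44.5% of all genes that passed. The reference table held 0 of the 42189 IDs, so it could not tell which locus of the list, if any, is STAR1. LOC_Os04g49410 fell in both, with a log2 change of −1.33 in the tolerant and −1.51 in the sensitive line. LOC_Os06g48060 passed in neither, at −0.55 ± 0.56 (SE) in the tolerant and 0.65 ± 0.56 (SE) in the sensitive line. The medians were 7.59 and 7.78 for the dehydrin and LEA list, 2.85 and 3.26 for the ABA list, and −0.98 and −0.36 for the aluminium list, in tolerant and sensitive roots, beside −0.08 and −0.03 over all genes tested. None of these 3 lists had a locus called between the lines at 28 °C or 10 °C or for the difference of the responses in the DESeq2 tables, where 2, 2 and 4 of their loci had an unadjusted p below 0.05.

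The genes nearest to each member were found by the Euclidean distance over the 4 deposited log2 changes, among 20131 other genes with a mean of at least 20 normalised counts, so the likeness covers 4 groups only. Nearest to LOC_Os01g72910 was LOC_Os05g43895, at a distance of 0.386, whose warm sensitive libraries held 14.5 and 5.47 normalised counts and the cold ones 3710.5 and 8897. Nearest to LOC_Os01g72900 were LOC_Os05g37060 and LOC_Os04g12720, at 0.325 and 0.411, both with under 1 normalised count in each warm group, so that their fitted changes rest on the handling of reads near 0. Nearest to LOC_Os01g73250 were LOC_Os08g43870 and LOC_Os08g43770, at 0.370 and 0.445. LOC_Os08g43870 had 8.34 and 4.42 normalised counts in sensitive and 75.7 and 19.6 in tolerant roots at 10 °C, so there the deeper tolerant library was the higher, opposite to LOC_Os01g73250. Members that changed less had closer matches: LOC_Os05g04960 lay 0.0462 from LOC_Os04g34600, LOC_Os11g47480 lay 0.0901 from LOC_Os02g33820, and LOC_Os07g01400 lay 0.138 from LOC_Os11g06720.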

How the data were processed

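Per the labels' protocols, root poly-A RNA was sequenced in single-end runs of 50 bp. Bowtie 0.12.7 is named in the submitters' processing notes; for build, annotation and counter the sources used here name nothing. Per the file headers, the 4 deposited tables have the columns of DESeq2 results. The mean signal per gene was deposited by the authors as counts divided by size factors. Log2 changes and their SEs, the Wald score and each p-value and adjusted p-value are as deposited by the authors.

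Single-read genes (335 to 455 per library) gave the size factors and the direction of each table. Whole reads per library were then solved so that they return the deposited mean (to a relative error of 1.55e-15 for the members), the log2 changes (to 3.93e-05) and the SEs of a negative binomial fit; exactly 1 solution was found for 5 of 6 members and for 1503 of 2014 background loci (1 in 10 of the loci with a mean of at least 20). The search was too large for LOC_Os11g06720 and for 471 of the background loci, so the background leaves out loci with too many reads. The method was tested on simulated data, in which changes between groups were mostly far smaller than those of the tandem pair. A ratio of 2 libraries adds 0.5 to each. The dispersion came from the same solution, and for LOC_Os11g06720 from the 4 SEs. Calls used an adjusted p below 0.05. The difference of responses is a Wald test derived from both cold tables, adjusted by Benjamini-Hochberg. Intervals of reads cover counting error only. Members and lists were chosen with earlier results of these data known. All 6 members, the 2 nearest genes of each and neighbours within 5 loci were described by rule; LOC_Os01g72850, LOC_Os01g72890, LOC_Os01g72940 and LOC_Os01g73240 were picked from the neighbours after their values were seen. Solving reads, and with them leaving out libraries, was chosen after the data were seen. Computation used Python 3.11.15, NumPy 2.4.6 and SciPy 1.17.1.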

Additional observations from a re-analysis of the deposited data

Results flagged for a closer look

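LOC_Os01g73250 responded to cold differently in the lines by a test of the difference itself, with a log2 difference of 3.02 between the tolerant and the sensitive response. Without 1 library this difference ran from 2.14 to 3.56, and the call did not hold in every such fit, as given above.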

How the results depend on the processing

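Counts of members past the threshold stayed within 1.5 times of the reported count under 27 of 30 alternatives. Some of these could not move: at 28 °C the count was 0, which stricter settings cannot change. In tolerant roots the cold count of 6 became 3 at an adjusted p below 0.01. When the statistics were divided by their robust spread it became 0 in tolerant and 0 in sensitive roots, a setting that left 255 and 265 genes called in all. With genes of low mean kept in the adjustment, 5 members passed in tolerant roots, 3 higher and 2 lower. In sensitive roots 4 passed under that setting, 3 higher and 1 lower. The members lost by it were LOC_Os02g33820 in tolerant and LOC_Os11g06720 in sensitive roots. Counts for the lines at 28 °C (0) and 10 °C (1) and for the difference of responses (1) were the same under every alternative that kept all libraries. Centring on the median of well-covered genes, which shifted the tolerant cold response by 0.20 and the sensitive one by 0.10 on the log2 scale, turned no call around and left 5 members past the threshold in each line; LOC_Os04g34600 was lost in tolerant roots. Single members' values were also recomputed by centring or without a library. Calls were lost in this way in the cold response of tolerant roots, where most of the losses lay, and in the difference of responses. Values not past the threshold before, such as all those at 28 °C, had no call to lose. No paired analysis was possible because the tables, and the reads solved from them, carry no replicate numbers. LOC_Os11g06720 was left out of the fits without a library. With 2 libraries a group, the spread rests on a dispersion shared over groups.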
